A study of Bos taurus with 10 samples.

Results

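Histones wrap the DNA of every nucleated cell, and a large set of enzymes and complexes places histones on DNA, marks them, reads the marks and moves nucleosomes. The genes of this machinery described here are 184 probe sets of 101 genes, out of 24016 probe sets without controls and 9155 named genes on the bovine Affymetrix array. They were chosen by gene symbol alone, current or former: histones, the chaperones ASF1, CAF-1 and NAP1L, lysine acetyltransferases (KAT), deacetylases (HDAC and SIRT), lysine methyltransferases (KMT, SETD, EZH, EED), arginine methyltransferases (PRMT), lysine demethylases (KDM), DNA methylation genes (DNMT, MBD and the former DNMT2), mark readers (CBX, BRD, ING) and nucleosome remodellers (CHD, SMARC, ARID). The rule used no measured value. SUZ12, KAT6A and the TET genes were not analysed here.

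The arrays compared 5 pools of immature oocytes with 5 pools of in vitro matured (IVM) oocytes, all from 3 to 8 mm follicles of abattoir cows whose breed and age the labels do not give. Immature oocytes were stripped of their cumulus cells and frozen at 0 h. The IVM oocytes stayed inside their cumulus for 24 h in maturation medium that held epidermal growth factor at 10 ng/ml and 10% calf serum of fetal origin, and were stripped afterwards, so the time in culture, the serum, the growth factor and the longer contact with cumulus all go with the IVM label. Each array received amplified RNA from 100 ng of total RNA, and the values are log2 expression values, 1 per probe set and array.

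A fully grown oocyte holds its chromatin in the germinal vesicle, the large nucleus of meiotic prophase, and is close to transcriptional silence. During maturation the vesicle breaks down, chromosomes condense, histones lose many of their acetyl groups, and maternal messages are translated, deadenylated or destroyed. The chromatin proteins that rebuild both pronuclei after fertilization and carry the first cleavages come largely from these stored messages. The study also proposes some new transcription during bovine maturation, from rising transcripts that were lower with the transcription inhibitor α-amanitin. Most messages of the replication-dependent histones end in a stem loop rather than a poly(A) tail, which limits what an oligo(dT)-primed amplification sees of them.

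The annotation of EED, a core subunit of Polycomb repressive complex 2, went against its label. It named 23 probe sets from 20 UniGene transcript clusters, where no other member gene had more than 5 probe sets, and the 14 of them that varied differed between the groups by anything from -3.45 to 6.05. No value is read as that of EED, and counts are given with and without these probe sets.

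Transcripts of the chromatin machinery differed in both directions between the groups. Messages for the annealing helicase SMARCAL1, the acetyltransferase subunit BRD8, the histone chaperone ASF1A, the acetyltransferase KAT8 and the arginine methyltransferase PRMT5 were 5.26-fold to 32.5-fold lower in IVM oocytes. CHD1, CHD2, SMARCA4 and HDAC1 had probe sets 2.91-fold to 4.31-fold higher. At an adjusted p under 0.0001, 16 member probe sets were lower in IVM oocytes, 8.70% of the 184, against 4.81% of all probe sets. Another 7 were higher, 3.80% against 0.974% of all. Centring on spiked poly-A controls gave 125 lower and 3 higher, but 75 of the 125 were nearly flat probe sets that the shift alone made lower. Among those that varied, 50 of 109 members were lower with that centring, 45.9% against 46.4% of all, and 3 were higher, against 156 of all 9460. Testing the 9000 most variable probe sets alone gave 23 lower and 18 higher. Shares of all probe sets are not given for this setting, the replicate block or left-out arrays, so those counts are not set against the whole array. The methods split the oocytes of a collection day between the groups and equate replicates with days. With the replicate number as a block limma called 0 in either direction. Before adjustment its p was under 0.05 in 42 lower and 56 higher of all 184 members, flat ones included. With that block over the 9000 most variable probe sets there were 15 lower and 9 higher. Without single arrays the lower count was 9 or 10, but 11 without IVM replicate 1 and 13 without IVM replicate 4, and the higher count was 2 to 4, but 5 without IVM replicate 3 and 7 without IVM replicate 4. Many probe sets on this array are nearly flat, because the summary method shrinks a probe set with no shared signal to a constant. In all, 109 of the members (59.2%) spanned at least 0.01 over the 10 arrays, against 39.4% of all probe sets. Among those that varied, 14.7% of the members were lower against 12.1% of all, and 6.42% were higher against 2.38%. Without the EED probe sets the counts were 14 lower and 7 higher, from 14 and 6 genes. In pooled oocytes fewer cells of a type and less RNA per cell cannot be told apart, and with this amplification neither can fewer transcripts and shorter poly(A) tails.

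Below the threshold the members lay on both sides of 0. With the looser limit of 0.05, 41 members (22.3%) passed with a lower and 47 (25.5%) with a higher IVM mean, against 15.0% and 15.5% of all probe sets. Flat probe sets made up 6 of the 41 and 2 of the 47. Among the probe sets that varied 35 and 45 members passed, 32.1% and 41.3% against 31.7% and 34.0% of all. The groups did not overlap in 69 of the 109 members that varied, or 63.3%, against 56.3% of all probe sets that varied. The median difference was 0.29 over these members and 0.18 over all such probe sets. The mean was higher in IVM oocytes for 64 of the 109 members (58.7%, against 57.5% of all), and for 29 of them once the arrays were centred on the spiked poly-A control transcripts, which moved the difference of every probe set by -1.05.

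**Figure D1:**
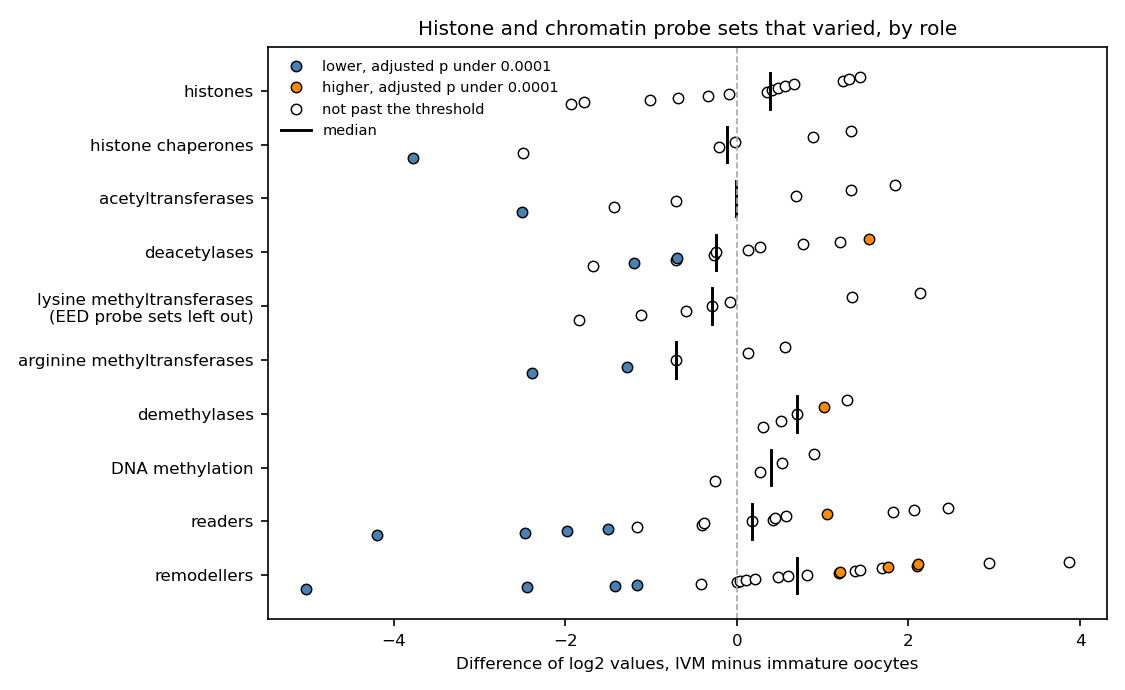
Difference of log2 values, IVM minus immature oocytes, on the horizontal axis, for the 95 member probe sets that varied and are not annotated to EED, in lines by role. Filled points passed the adjusted p threshold of 0.0001 and short bars mark the median of each role. The 14 probe sets that were lower reach -5.02 and the 7 that were higher reach 2.11. Centring on the poly-A controls would move every point by -1.05 and put 2 of those 7, ING4 and KDM1A, just under 0.

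Some arrays stood apart. The poly-A control transcripts, spiked into the RNA before labelling, averaged 7.12 ± 0.17 in immature and 8.17 ± 0.22 (SD, n = 5) in IVM arrays (difference 1.05, two-sided exact permutation test, p = 0.00794, which no comparison of 5 with 5 arrays can go below). The hybridization controls read 9.38 to 9.73 on immature replicates 1 to 3 and 10.75 to 11.22 on the other 7 arrays. Over the members that varied, IVM replicate 4 correlated least with its own group (mean r = 0.842 across probe sets, which are not independent) and had 21 probe sets over 1 log2 unit from the median of the other IVM arrays, followed by IVM replicate 5 with 12. The immature arrays correlated at 0.947 to 0.976. With immature replicates 4 and 5 as the only immature arrays limma called 0 members in either direction. Before adjustment its p was under 0.05 in 34 lower and 35 higher of all 184 members, flat ones included. The share of all probe sets in that fit is not given.

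Of 14 oocyte markers 9 had a named probe set, and all 9 varied. ZP2, a zona pellucida glycoprotein, was at 12.85 to 13.94 on every array. The summed level of the oocyte markers, added on the linear scale and turned back into log2, ran from 16.03 to 16.50 in immature and from 14.55 to 15.33 in IVM arrays, and 2 of the 9, ZP3 and NLRP5, passed as lower. Markers of cumulus and granulosa cells were read on both sides, 12 of 14 varying, with sums of 13.24 to 14.75 and 13.49 to 17.44. TNFAIP6, a gene of the expanding cumulus, was the single one of them that passed (10.86, adjusted p = 7.63e-05) and stood at 3.27 to 5.95 in immature and 12.27 to 17.13 in IVM arrays, while LHCGR and FOXL2 were nearly flat. Of 10 markers of other somatic and blood cells 4 varied and 0 passed by limma (before adjustment, p under 0.05 in 1 lower and 3 higher), with sums of 9.47 to 14.11 and 9.73 to 12.78. The part of follicular cell RNA in the differences below was not tested.

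Histone genes themselves gave 0 calls by limma in either direction, over 17 probe sets of which 14 varied. Below 0.05, adjusted or not, there were 5 lower and 3 higher. H3-3A and H3-3B both encode the replacement histone H3.3, which is loaded outside DNA replication. H3-3A read 11.99, 11.35, 11.77, 11.90 and 11.68 in immature and 12.80, 13.10, 13.05, 12.97 and 12.95 in IVM arrays, a difference of 1.24 (SE 0.12) that just missed the threshold (adjusted p = 1.11e-04, and 7.19e-05 without immature replicate 2). Its second probe set differed by 1.31 (adjusted p = 2.64e-04), and neither probe set overlapped between the groups. H3-3B read 12.49, 12.49, 12.56, 12.21 and 12.22 in immature and 12.01, 12.13, 11.79, 12.17 and 12.15 in IVM arrays, a difference of -0.34 (adjusted p = 0.0350). As deposited, the groups were thus separate for both genes, with H3-3A above and H3-3B below. With poly-A centring the differences were 0.18 for H3-3A and -1.40 for H3-3B.

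H2A.Z, a variant found at promoters, is encoded by H2AZ1 and H2AZ2. H2AZ1, known as H2AFZ when the study used it as a qPCR reference gene, read 9.58, 6.96, 10.55, 11.52 and 9.31 in immature and 9.59, 11.80, 11.65, 12.44 and 9.66 in IVM arrays. Its range within the immature group was wider than the difference of 1.44 (SE 0.96, adjusted p = 0.328), and the groups overlapped. For H2AZ2 the brighter probe set read 10.92, 10.23, 11.90, 10.90 and 10.70 in immature and 8.28, 9.18, 9.02, 10.01 and 8.45 in IVM arrays, a difference of -1.94 (adjusted p = 0.00728) without overlap. Its other probe set differed by 0.48 (adjusted p = 0.0169; -0.57 when centred on the poly-A controls), so the gene has no single direction here.

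Of the core histones of the replication-dependent clusters, listed under H2AC and H2BC names, the 3 probe sets that varied had lower IVM means, while H2AC6 and a second H2AC25 probe set were flat. H2AC20 read 11.33 to 12.09 in immature and 9.16 to 10.52 in IVM arrays (difference -1.78, adjusted p = 0.00117). H2AC25 differed by -1.01 (adjusted p = 2.66e-04) and H2BC19 by -0.69 (adjusted p = 0.0365), both without overlap. None passed at 0.0001, and the messages of this class that are read here are those the oligo(dT) primer could reach. H2AX, the variant phosphorylated at DNA breaks, differed by 0.66 (adjusted p = 0.328), and macroH2A genes by -0.09 and 0.41 (adjusted p = 0.830 and 0.291). The stem-loop binding protein gene SLBP, whose product binds and stabilises these histone messages, differed by -0.27 (adjusted p = 0.104).

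Among the histone chaperones, ASF1A had the smallest adjusted p of any member. It read 13.19, 13.27, 13.10, 12.89 and 13.22 in immature and 9.17, 9.44, 9.37, 9.20 and 9.57 in IVM oocytes. The fall of 3.78 log2 units (SE 0.10, adjusted p = 9.29e-08) was 13.8-fold and held without any one array. ASF1 hands H3-H4 dimers to the assembly complexes. Its other gene, ASF1B, read 11.05 to 11.35 in immature and 11.23 to 12.71 in IVM arrays, a difference of 0.89 (adjusted p = 0.0274) that became -0.16 with poly-A centring. CHAF1A, the large subunit of the CAF-1 assembly complex, read 12.32, 12.50, 12.39, 12.16 and 12.22 against 10.07, 9.89, 9.98, 8.90 and 10.25. Its difference of -2.50 (SE 0.24) just missed the threshold (adjusted p = 1.05e-04). It passed without IVM replicate 4 (-2.27, adjusted p = 3.42e-06), and with all arrays it passed after median centring (adjusted p = 5.15e-05) and among the 9000 most variable probe sets (adjusted p = 2.92e-06). CHAF1B, the partner subunit, differed by -0.21 (adjusted p = 0.00779), and NAP1L1, a chaperone of H2A-H2B, read 10.00 ± 0.19 in immature and 9.98 ± 0.27 in IVM arrays (SD, n = 5).

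Of the acetyltransferases, KAT8, which acetylates lysine 16 of histone H4, was the single gene to pass. It read 10.30, 10.28, 10.39, 10.03 and 10.33 in immature and 7.49, 7.77, 7.90, 8.24 and 7.40 in IVM oocytes, a fall of 2.51 (SE 0.16, adjusted p = 9.43e-06, 5.68-fold). KAT7, the HBO1 enzyme of histone H3 and H4 acetylation, read 11.04 to 11.54 against 9.59 to 10.15 (difference -1.43, adjusted p = 1.68e-04). KAT5, the TIP60 enzyme, differed by -0.71 (adjusted p = 5.95e-04). KAT6B and KAT2B had higher IVM means: the brighter KAT6B probe set read 8.83 to 9.60 against 10.31 to 11.77 (1.84, adjusted p = 0.00114), and KAT2B 6.65 to 7.32 against 7.49 to 9.00 (1.33, adjusted p = 0.00862). In all 6 acetyltransferase probe sets that varied the groups did not overlap (56.3% of all probe sets that varied), 3 with higher and 3 with lower IVM means, or 2 and 4 after poly-A centring.

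Deacetylases remove those acetyl groups, and 3 of their 24 probe sets passed. Of the 24, 8.33% were lower and 4.17% higher, against 4.81% and 0.974% of all probe sets. HDAC1, a class I enzyme of the Sin3, NuRD and CoREST complexes, read 9.17, 8.98, 9.05, 8.94 and 9.15 in immature and 10.52, 10.72, 10.59, 10.57 and 10.61 in IVM oocytes and rose by 1.54 (SE 0.06, adjusted p = 4.03e-07). It stayed above 0 with poly-A centring, at 0.49, and past the threshold without any one array. HDAC3, of the NCoR complexes, read 8.01 to 8.81 against 9.21 to 10.02 (1.20, adjusted p = 0.00239, and 0.14 with poly-A centring). HDAC2 was one of the flat probe sets and gives no information here.

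HDAC7 and HDAC10, both of class II, went the other way. HDAC7 fell by 1.20 (SE 0.08, adjusted p = 1.24e-05) from 10.39 ± 0.14 to 9.18 ± 0.12 (SD, n = 5), and its second probe set differed by -0.25 with overlap (adjusted p = 0.291). HDAC10 fell by 0.70 (SE 0.06, adjusted p = 4.79e-05) from 7.67 ± 0.10 to 6.97 ± 0.08 (SD, n = 5), a call that was lost without any single array but immature replicate 3. HDAC6, the cytoplasmic tubulin deacetylase, read 7.85 to 8.78 against 6.20 to 7.63, a difference of -1.68 (adjusted p = 0.00286), and HDAC11, a class IV enzyme, differed by -0.71 (adjusted p = 0.00129). The sirtuins, which use NAD, gave 0 calls by limma over 10 probe sets (before adjustment, p under 0.05 in 2 lower and 2 higher, flat probe sets included). The 2 SIRT1 probe sets that varied differed by 0.27 and -0.27 (adjusted p = 0.0431 and 0.113), SIRT3 by 0.77 (adjusted p = 0.0196), and SIRT2, SIRT5, SIRT6 and SIRT7 were flat.

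Without EED, the lysine methyltransferases held 12 probe sets of which 7 varied and 0 passed by limma (before adjustment, p under 0.05 in 3 lower and 4 higher). These counts include flat probe sets, since only 2 of the 7 that varied had a higher IVM mean. EZH2, which writes the repressive Polycomb mark on lysine 27 of histone H3, read 10.72, 11.29, 11.07, 10.55 and 10.99 in immature and 9.34, 9.17, 8.72, 8.76 and 9.43 in IVM oocytes. The groups lay over 1 log2 unit apart, a difference of -1.84 (SE 0.19, adjusted p = 1.75e-04). SETD3, the actin histidine methyltransferase despite its name, differed by -1.12 (adjusted p = 2.35e-04), and SETDB1, which writes lysine 9 methylation of H3, by -0.59 (adjusted p = 0.0727). SETD7 read 6.16 to 6.94 against 7.10 to 10.32, a difference of 2.14 with a wide IVM spread (SD 1.26, adjusted p = 0.0229). The 2 varying KMT2E probe sets differed by 1.34 and -0.29 (adjusted p = 4.72e-04 and 0.281), or 0.28 and -1.34 with poly-A centring.

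Both calls among the 9 arginine methyltransferase probe sets were lower (22.2%, against 4.81% of all probe sets). PRMT5, which makes symmetric dimethylarginine on histones and on splicing proteins, read 11.12, 11.53, 11.23, 11.16 and 11.49 in immature and 9.01, 8.85, 8.73, 8.88 and 9.09 in IVM oocytes. The fall was 2.39 (SE 0.11, adjusted p = 1.23e-06, 5.26-fold). PRMT7, the monomethylating enzyme, fell by 1.28 (SE 0.08, adjusted p = 9.33e-06) from 8.43 ± 0.13 to 7.14 ± 0.13 (SD, n = 5). PRMT6 differed by -0.71 (adjusted p = 0.00101), PRMT1, the main enzyme of asymmetric dimethylation, by 0.56 (adjusted p = 0.149; -0.49 with poly-A centring), and PRMT3 by 0.13 (adjusted p = 0.400).

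All 5 demethylase probe sets that varied had a higher mean in IVM oocytes, against 57.5% of all that varied, and 1 of the 5 remained higher after poly-A centring, against 1636 of all 9460. KDM1A, the LSD1 demethylase of lysine 4 of histone H3, read 10.85, 11.15, 10.90, 10.77 and 11.01 in immature and 11.99, 12.15, 11.74, 11.86 and 12.07 in IVM oocytes, a rise of 1.02 (SE 0.10, adjusted p = 9.60e-05) that was -0.03 with poly-A centring and missed the threshold whenever any array was left out (adjusted p = 1.39e-04 to 5.36e-04). KDM3A, a lysine 9 demethylase of H3, read 7.92 to 8.19 against 8.93 to 9.64 (1.28, adjusted p = 2.95e-04, and 0.23 with poly-A centring). It passed without IVM replicate 4 (1.39, adjusted p = 8.94e-05). KDM5C differed by 0.70 (adjusted p = 0.00389; -0.35 with poly-A centring).

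Of the DNA methylation probe sets 0 of 12 passed by limma. Before adjustment the limma p was under 0.05 in 2 lower and 2 higher, of which DNMT1 alone varied and the others were flat. In each of the 4 that varied the groups overlapped. DNMT1, the maintenance methyltransferase, read 10.63, 11.06, 10.60, 10.50 and 10.67 in immature and 11.97, 11.51, 11.52, 10.88 and 12.10 in IVM arrays, a difference of 0.90 (adjusted p = 0.0194; -0.15 with poly-A centring). The IVM value of replicate 4 lay inside the immature range. DNMT3A, which sets new methylation during oocyte growth, differed by -0.26 (adjusted p = 0.364) and DNMT3B was flat. MBD1, which binds methylated DNA, differed by 0.52, and TRDMT1, the tRNA methyltransferase once called DNMT2, by 0.27 (adjusted p = 0.274 and 0.444; -0.54 and -0.78 with poly-A centring).

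Among the readers, 4 of 19 probe sets were lower and 1 was higher, where 4.81% and 0.974% of all probe sets were. BRD8, the bromodomain subunit of the NuA4 (TIP60) acetyltransferase complex, read 12.25, 12.55, 12.49, 12.46 and 12.64 in immature and 7.81, 8.60, 8.20, 9.53 and 7.26 in IVM oocytes. The fall of 4.20 (SE 0.39, 18.3-fold) was the largest of the group, but its IVM spread (SD 0.86) left it near the threshold (adjusted p = 7.64e-05), and the call was lost without any single array but IVM replicate 4, although the difference stayed between -4.51 and -3.94 without any single array. BRD9, of the SWI/SNF complexes, fell by 1.98 (SE 0.09, adjusted p = 1.03e-06), from 10.01 to 10.31 in immature to 7.89 to 8.24 in IVM arrays.

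CBX8, a Polycomb complex 1 subunit that binds methylated lysine 27, read 8.84 to 9.73 against 6.49 to 7.08 and fell by 2.47 (SE 0.21, adjusted p = 5.13e-05; 1.26e-04 to 3.04e-04 when any single array was left out). CBX3, a heterochromatin protein 1, read 8.43, 7.41, 9.13, 9.77 and 8.45 in immature and 10.23, 10.85, 10.80, 11.96 and 9.64 in IVM arrays, with overlap (2.06, adjusted p = 0.0217). ING proteins read methylated lysine 4. ING1 fell by 1.50 (SE 0.14, adjusted p = 9.60e-05, a call lost without any single array but immature replicate 2) and its second probe set differed by -0.38 (adjusted p = 0.0331). ING4 rose by 1.05 (SE 0.08, adjusted p = 3.04e-05) on one probe set, a difference of -0.01 with poly-A centring and a call lost without any of immature replicates 1 to 4 or IVM replicates 1 and 2, while its other probe set differed by -0.41 (adjusted p = 0.00932). BRD3 read 8.78 to 9.44 against 10.27 to 11.48 (1.82, adjusted p = 6.08e-04), and the 3 BRD7 probe sets differed by 0.44, 0.57 and -1.17.

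**Figure D2:**
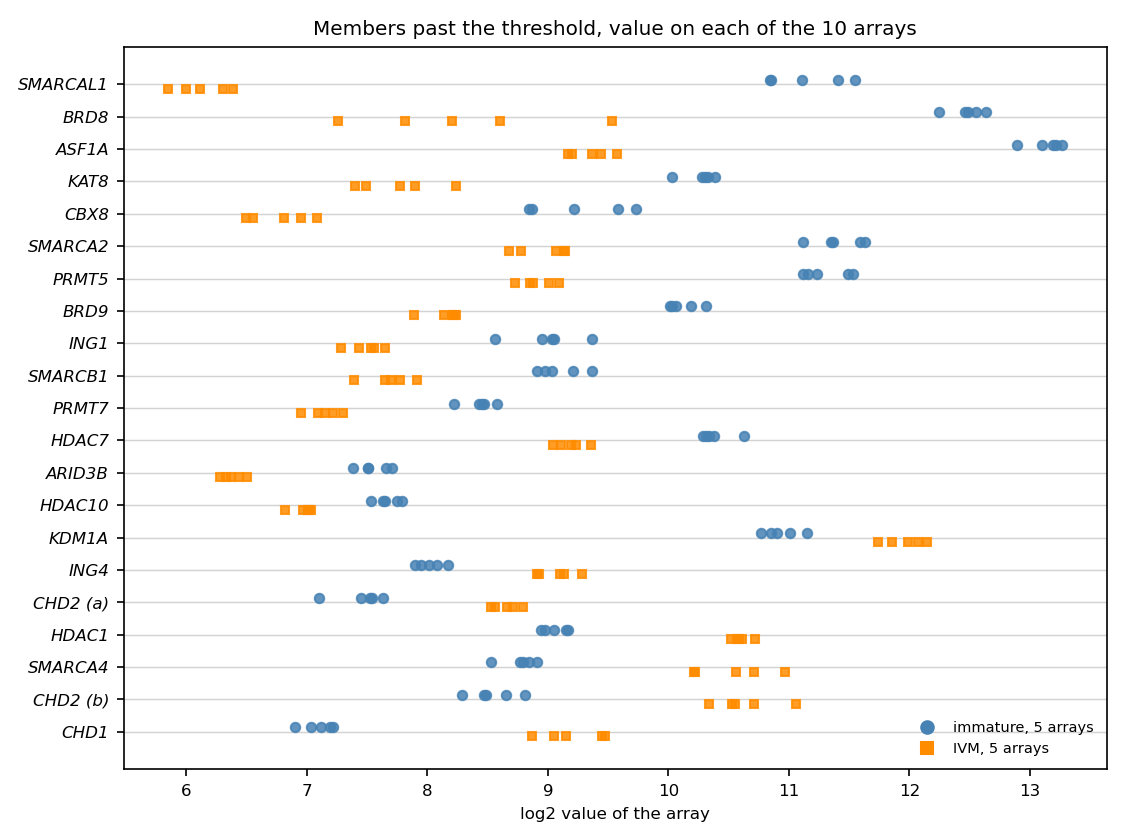
Value of each of the 10 arrays (log2, horizontal axis) for the 21 member probe sets past the threshold that are not annotated to EED, ordered by difference. Circles are the 5 immature and squares the 5 IVM arrays, and (a) and (b) are the CHD2 probe sets with differences of 1.20 and 2.10. In every line the groups do not overlap. IVM values of BRD8 spread from 7.26 to 9.53, while HDAC1, BRD9 and PRMT5 are tight in both groups.

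Nucleosome remodellers use ATP to slide, evict or exchange histones. The group taken by CHD, SMARC and ARID symbols, not all of them remodellers, had 4 probe sets lower and 4 higher of 37. That is 10.8% each, against 4.81% lower and 0.974% higher of all probe sets. The higher calls came from 3 genes. SMARCAL1, an annealing helicase that acts at stalled replication forks, read 10.84, 11.55, 11.41, 10.85 and 11.11 in immature and 5.85, 6.11, 6.30, 6.39 and 6.00 in IVM oocytes. Its fall was the largest of any member outside EED, 5.02 (SE 0.17, adjusted p = 3.09e-07) or 32.5-fold, and it held without any one array. SMARCB1, the core SWI/SNF subunit also called SNF5, fell by 1.42 (SE 0.12, adjusted p = 4.38e-05) from 8.91 to 9.37 in immature to 7.39 to 7.91 in IVM arrays, a call kept without IVM replicates 1 or 4 but lost without any other single array. ARID3B, a DNA-binding protein, fell by 1.17 (SE 0.07, adjusted p = 6.63e-06) from 7.55 ± 0.13 to 6.38 ± 0.09 (SD, n = 5).

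The 2 alternative SWI/SNF motors moved apart. SMARCA2, the BRM motor, read 11.35, 11.59, 11.63, 11.12 and 11.37 in immature and 9.13, 8.78, 8.68, 9.14 and 9.07 in IVM oocytes, a fall of 2.45 (SE 0.13, adjusted p = 3.52e-06). SMARCA4, the BRG1 motor, had 3 varying probe sets, all with higher IVM means. One of them read 8.77, 8.79, 8.84, 8.91 and 8.53 against 10.21, 10.56, 10.97, 10.22 and 10.71, a rise of 1.76 (SE 0.16, adjusted p = 6.84e-05), still 0.71 with poly-A centring, and a call lost without any single array but IVM replicate 3. The brightest differed by 0.48 (adjusted p = 5.36e-04; -0.57 with poly-A centring) and the dimmest by 0.10 (adjusted p = 0.149).

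The CHD family, chromodomain remodellers, had a higher IVM mean in 8 of its 9 varying probe sets, 6 of 9 after poly-A centring, where 57.5% of all varying probe sets were higher, or 1636 of 9460 after that centring. It held 3 of the 7 higher calls, from 2 genes, CHD1 and CHD2. That is 3 of its 9 varying probe sets, against 2.38% called higher of all that varied. CHD1, which binds methylated lysine 4 and keeps chromatin open, read 6.90, 7.03, 7.12, 7.22 and 7.19 in immature and 8.87, 9.05, 9.45, 9.47 and 9.15 in IVM oocytes, a rise of 2.11 (SE 0.13, adjusted p = 7.07e-06) that held without any one array. Its second probe set differed by 2.94 (adjusted p = 0.00495). CHD2 rose on 2 of 4 varying probe sets, by 2.10 (adjusted p = 1.67e-05) and by 1.20 (adjusted p = 5.03e-05). With poly-A centring these differences were 1.04 and 0.15. The first call was lost without immature replicates 3 or 4 or IVM replicate 3 and the second without any array but immature replicate 1, and the other probe sets differed by 0.21 and -0.42 (adjusted p = 0.0330 and 0.0108). CHD6 read 7.37 to 7.66 against 8.56 to 9.63 (1.69, adjusted p = 2.28e-04; 4.08e-05 without IVM replicate 4). CHD4, the NuRD motor, differed by 0.59 (adjusted p = 0.00266) and CHD9 by 1.19 with overlap (adjusted p = 0.0878).

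SMARCA1 and SMARCA5 are the ISWI motors. SMARCA1 read 7.36, 6.20, 8.13, 9.03 and 7.52 in immature and 10.37, 12.59, 11.44, 13.38 and 9.83 in IVM arrays, a difference of 3.87 without overlap that missed the threshold because of its spread (SE 0.80, adjusted p = 0.00689). SMARCA5 hardly moved, at 10.60 ± 0.06 and 10.60 ± 0.07 (SD, n = 5). ARID1A, a SWI/SNF subunit, differed by 1.38 and 1.44 on its 2 probe sets (adjusted p = 0.00145 and 0.0107), and SMARCAD1 by 0.82 (adjusted p = 1.14e-04).

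Several genes are read by more than 1 varying probe set, which serves as a check within the array. Of 17 such genes other than EED, 11 had all their varying probe sets on the same side of 0 and 6 did not (BRD7, CHD2, H2AZ2, ING4, KMT2E and SIRT1). Probe sets of 1 gene can read different transcript ends, so a call on ING4 or CHD2 belongs to the probe set rather than to the gene. The 26 genes with no varying probe set included DNMT3B, HDAC2, EZH1, CHD3, CHD8, MBD3, SMARCE1 and the sirtuins named above.

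Whether related genes changed by different amounts was asked of 12 pairs, of which 8 could be tested, by an exact permutation test, two-sided, on the within-array difference of the 2 log2 values, adjusted over the 8. The change of SMARCA4, on its brightest probe set, exceeded that of SMARCA2 by 2.94 (SE 0.14), and PRMT5 against PRMT1 gave -2.96 (SE 0.28). H2AZ2, on its brighter probe set, against H2AZ1 gave -3.38 (SE 0.69), but -0.96 on its other probe set (exact test, adjusted p = 0.333). CHAF1A against CHAF1B gave -2.29 (SE 0.20), H3-3A against H3-3B 1.58 (SE 0.17) and KAT7 against KAT8 1.07 (SE 0.24). On the brighter probe sets each of these 6 had p = 0.00794, the smallest the exact test allows, and an adjusted p of 0.0106. DNMT1 against DNMT3A gave 1.16 (SE 0.40, exact p = 0.0397, adjusted p = 0.0454), a call lost without any single array but immature replicate 2 or IVM replicate 4. HDAC1 and HDAC3 changed by amounts that could not be told apart, 0.35 (SE 0.20, exact p = 0.111), with immature replicate 3 deciding (0.47, adjusted p = 0.0181 without it). With the arrays paired by replicate number, none of the 8 could pass, since 5 pairs allow no p below 0.0625.

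**Figure D3:**
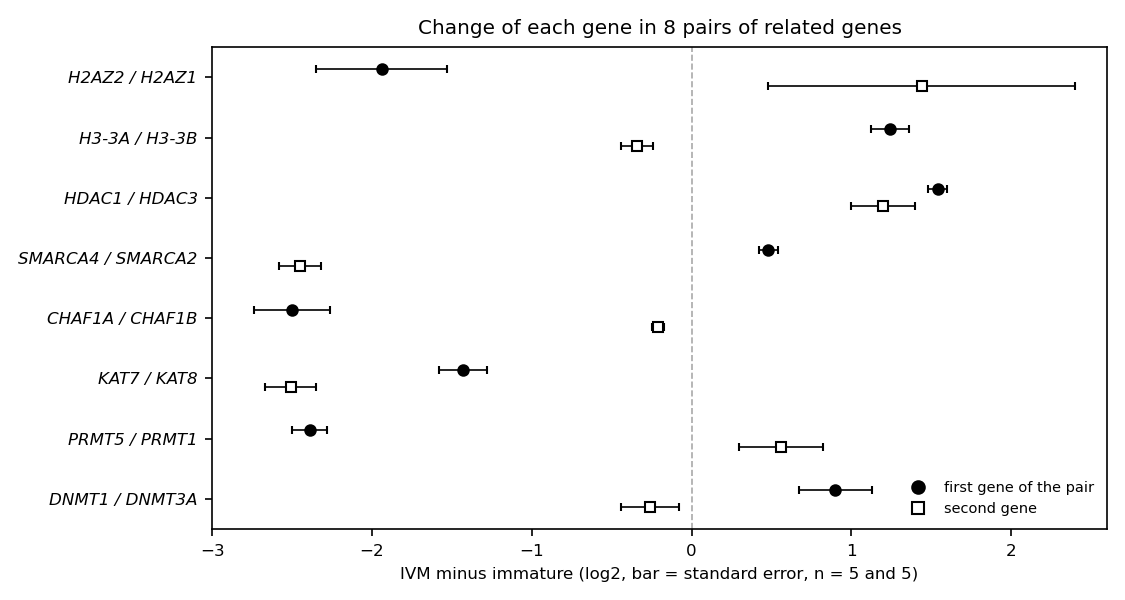
Change of each gene (IVM minus immature, log2, horizontal axis, bars 1 standard error, n = 5 and 5) in 8 pairs of related genes, the first gene of the pair as a filled circle and the second as an open square, each by its brightest varying probe set. SMARCA4 (0.48) and SMARCA2 (-2.45), PRMT1 (0.56) and PRMT5 (-2.39), and H2AZ1 (1.44) and H2AZ2 (-1.94, against 0.48 on its other probe set, not drawn) lie on opposite sides of 0. With poly-A centring each gene would move by -1.05 and the distances within pairs would stay.

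The members work with subunits that the symbol rule does not reach, and a list of 151 such chromatin genes gave 99 with a named probe set, of which 83 varied. Of these 83 genes 14 were lower and 3 higher at 0.0001, where 12.1% and 2.38% of all probe sets that varied were. At 0.05 there were 25 lower, near the 31.7% of all, and 41 higher, a larger share than the 34.0% of all. The background counts every varying probe set, whereas each gene listed is counted by its brightest alone. The median difference was 0.45, against 0.18. The groups below assign both lists to complexes, were drawn up after the values were seen and were given no test, and left-out arrays were not run for the added genes. Each gene is represented by its brightest varying probe set.

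NuA4, the TIP60 acetyltransferase complex, had 13 varying subunits with a median of -0.71. Its scaffold EPC1 fell by 4.19 (SE 0.08, adjusted p = 2.68e-08), close to BRD8, and DMAP1 fell by 1.93 (adjusted p = 5.93e-07). The helicases RUVBL1 and RUVBL2 differed by -2.49 and -2.26 (adjusted p = 2.98e-04 and 0.00105) and MRGBP by -1.59 (adjusted p = 4.17e-04). The complex was not uniform: MORF4L1, its chromodomain reader, rose by 0.80 (adjusted p = 7.13e-05; it would lie below 0 with poly-A centring) and EP400, the motor, differed by -0.20 (adjusted p = 0.197).

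The MSL and NSL complexes, which hold KAT8, had 6 varying genes with a median of -1.73. Of the 6, 4 passed as lower, against 12.1% of all probe sets that varied. WDR5, a scaffold that NSL shares with the lysine 4 methyltransferases, fell by 3.89 (SE 0.17, adjusted p = 1.12e-06). KANSL3 fell by 1.67 (adjusted p = 2.68e-05) and MCRS1 fell by 0.79 (adjusted p = 1.64e-05). KANSL2 differed by -1.80 (adjusted p = 0.00107) and MSL3, found in MSL alone, by 0.47 (adjusted p = 0.106).

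SWI/SNF was mixed, with 3 of 10 varying subunits lower (SMARCA2, SMARCB1 and BRD9) and 1 higher. Of all probe sets that varied 12.1% were lower and 2.38% higher. The higher one was DPF2, which rose by 1.31 (SE 0.10, adjusted p = 1.99e-05). PHF10, its counterpart in the PBAF form, differed by 2.68 (adjusted p = 0.00114), PBRM1 by 0.93 and ACTL6A by 0.94 (adjusted p = 0.0119 and 5.88e-04).

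In the HDAC1 complexes, 2 of 9 varying subunits were lower and 2 higher, against 12.1% and 2.38% of all probe sets that varied. SAP130 of the Sin3 complex fell by 3.41 (SE 0.16, adjusted p = 1.57e-06) beside ING1, while HDAC1 and KDM1A rose, KDM1A not with poly-A centring. In the Polycomb group CBX8 alone passed among 12 varying genes, as lower, near the 12.1% of all that varied. PHC1 differed by -1.86 (adjusted p = 1.11e-04), near EZH2, whereas RNF2 and PHF1 differed by 1.05 and 1.10 (adjusted p = 0.00882 and 0.00162; 9 of the 12 means were higher). In histone deposition ASF1A alone passed among 10, as lower, again near the 12.1% of all. RBBP4, shared by CAF-1 and several other complexes, differed by 0.73 (adjusted p = 1.76e-04), DAXX, the H3.3 chaperone, by 1.05 (adjusted p = 2.74e-04) and SSRP1, of FACT, by 1.15 (adjusted p = 6.47e-04).

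Outside these complexes, SUV39H1, which writes lysine 9 trimethylation on H3, fell by 2.63 (SE 0.15, adjusted p = 4.28e-06). HMGN2, a nucleosome-binding protein, fell by 2.66 (adjusted p = 6.14e-06), and HAT1, which acetylates newly made H4, fell by 2.05 (adjusted p = 5.13e-05). BAZ2A, a partner of SMARCA5, rose by 2.04 (SE 0.20, adjusted p = 9.57e-05).

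**Figure D4:**
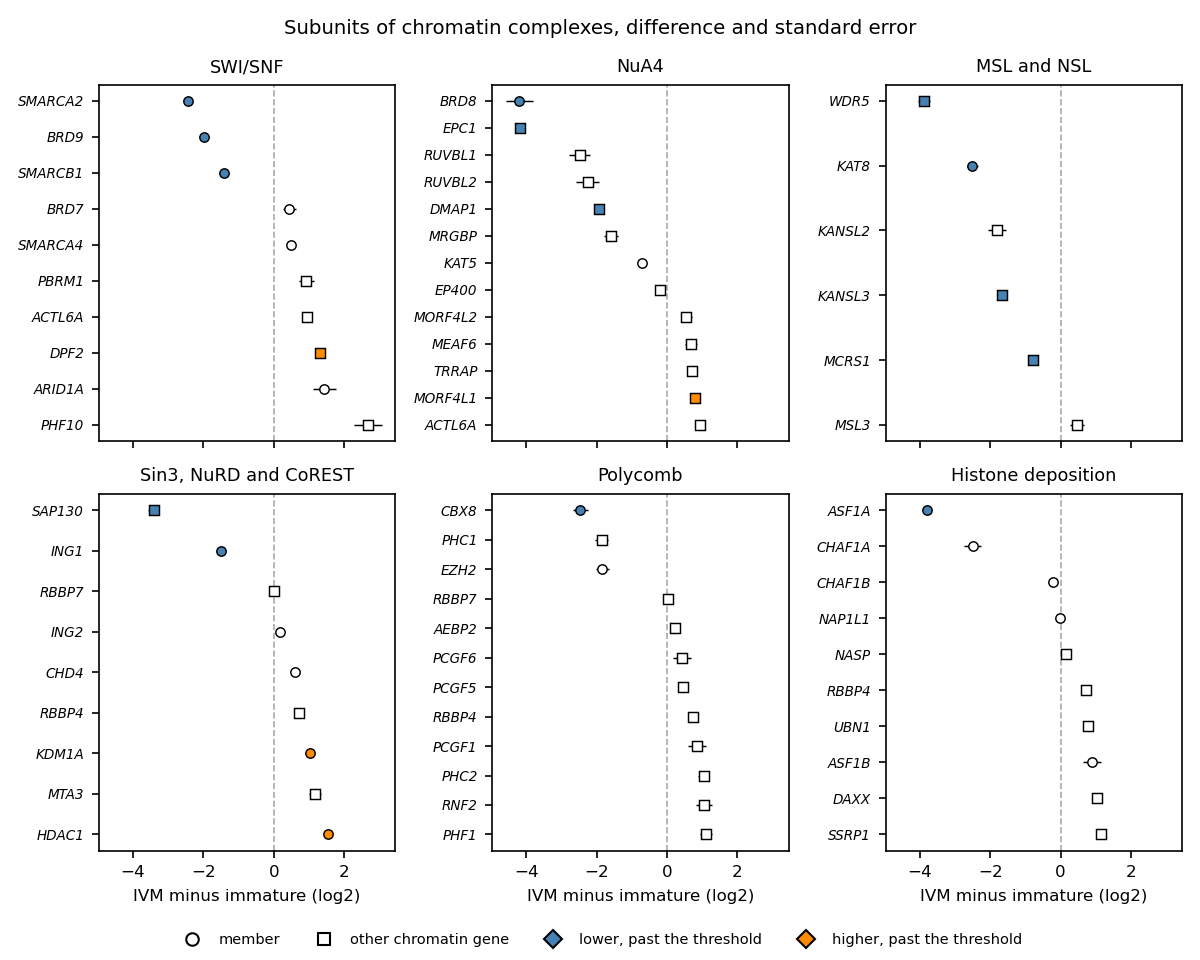
IVM minus immature difference (log2, horizontal axis, bars 1 standard error, n = 5 and 5) of the varying subunits of 6 groups of chromatin complexes. Circles are members, squares other chromatin genes, and filled symbols passed the adjusted p threshold of 0.0001. BRD8 and EPC1 of NuA4 lie near -4.20 while MORF4L1 is at 0.80, and all but MSL3 of the KAT8 complexes lie below 0. Poly-A centring would move every symbol by -1.05.

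Spread between replicates was larger after maturation. The SD was larger in the IVM group for 90 of the 109 members that varied, with a median of 0.30 against 0.18 in the immature group. Over all probe sets that varied the medians were 0.31 and 0.19. The widest members repeated an order of arrays. In the immature group H2AZ1 (SD 1.71), SMARCA1 (1.04), CBX3 (0.88), the dimmer ING2 probe set (0.87) and the second CHD1 probe set (0.61) were widest, and all 5 were lowest on replicate 2 and highest on replicate 4. In the IVM group ING2 (1.52), SMARCA1 (1.48), H2AZ1 (1.31), SETD7 (1.26) and CHD1 (1.13) were widest, all highest on replicate 4 and lowest on replicate 5, except H2AZ1, lowest on replicate 1.

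VIM, a gene of follicular and other somatic cells, was lowest and highest on those same arrays, at 12.69, 9.01, 13.75, 14.09 and 12.00 in immature and 8.82, 10.34, 10.33, 11.49 and 7.99 in IVM arrays. INHBA and FST, made by granulosa cells, were lowest on immature replicate 2 and highest on replicate 3, with replicate 4 next. Among IVM arrays they were highest on replicate 4 and lowest on replicate 5. CYP19A1, FSHR, HSD3B1, CYP11A1 and AMH were also lowest on immature replicate 2. Other cumulus and granulosa markers went the other way: PTGS2, HAS2, STAR and PTX3 were highest on immature replicate 2 (8.84, 10.19, 12.80 and 5.20). The oocyte genes GDF9, BMP15 and NLRP5 were highest on immature replicate 2 and lowest on replicate 4 of each group. The order of VIM (immature replicate 2 lowest and 4 highest, IVM replicate 5 lowest and 4 highest) was shared by 12 of the 109 members that varied (11.0%) and by 956 of all 9460 (10.1%), so the members were near the background in this. Between the groups, genes of these other cells differed both ways: VIM by -2.51 (adjusted p = 0.128), FST by -1.79 (adjusted p = 0.307) and INHBA by -0.53 (adjusted p = 0.848). LUM, which was lowest and highest on the same arrays as VIM, differed by 4.37 (adjusted p = 0.00196), DCN by 1.79 (adjusted p = 0.00510) and PTX3 by 6.38 (adjusted p = 4.80e-04), in the direction of SMARCA1 at 3.87. The part of follicular cell RNA in these spreads was not tested.

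**Figure D5:**
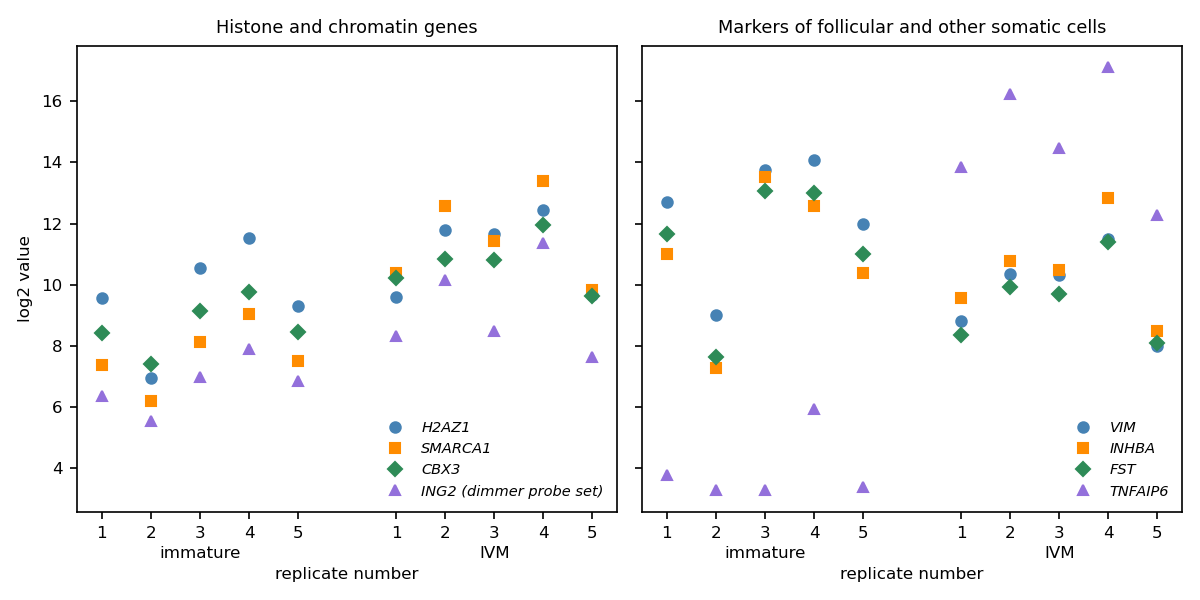
Log2 value (vertical axis) on each array, by group and replicate number, of H2AZ1, SMARCA1, CBX3 and the dimmer ING2 probe set (left) and of VIM, INHBA, FST and TNFAIP6 (right). Immature replicate 2 is the lowest immature array and IVM replicate 4 the highest IVM array for all 4 genes on the left, as for VIM on the right, which reads 9.01 and 11.49 there.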

How the data were processed

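RNA from 10 oocyte pools was amplified in 2 rounds from its poly(A) ends and hybridized to Affymetrix bovine arrays. The deposited log2 values were made by the authors with GCOS, quantile normalization and FARMS; tool versions and a genome build are not given in the sources used here, and their informative calls were not used. Probe sets were named from the platform annotation (13292 with 1 symbol, 86 with several, 10638 unnamed here), symbols updated through gene identifiers; former symbols alone added 4 members. Members, roles and lists were chosen with earlier results of these data known. limma 3.58.1 (R 4.3.3; tested on simulated data) compared the groups over 24016 probe sets without 112 controls, with Benjamini-Hochberg adjustment at 0.0001, the study's false discovery rate; its SAM permutations were not run. The prior degrees of freedom were 0.103. Pairs used exact permutation tests (Python 3.11.15, numpy 2.4.6). Genes named were those past the threshold, in each role up to 2 with the largest difference and 2 with the highest level, the pairs, and genes whose probe sets differed in sign; others were named after their values were seen. The number of arrays limits the precision, and p-values measure the spread between pools. Alternatives were the probe sets tested, centring, replicate block, left-out arrays and the threshold.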

Additional observations from a re-analysis of the deposited data

Results flagged for a closer look

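In 5 of 120 groups of 5 arrays 1 array lay far from the rest by Dixon's test. Chance does this in about 1 of 20 groups, so the number of flags was not above that rate. IVM replicate 4, with 2 of the 5 flags, was also the array that correlated least with its own group over the members. CHAF1A and CHAF1B, both subunits of CAF-1, were low on IVM replicate 4: CHAF1A at 8.90 against 9.89 to 10.25 on the other IVM arrays (gap over range 0.735) and CHAF1B at 7.39 against 7.57 to 7.61 (0.789). HDAC10 was low on IVM replicate 2, at 6.82 against 6.97 to 7.03 (0.728). CHD6 was high on immature replicate 1, at 7.66 against 7.37 to 7.44 (0.778), and HDAC7 on immature replicate 5, at 10.63 against 10.29 to 10.38 (0.733).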

How the results depend on the processing

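The count of members lower in IVM oocytes, 16, became 41 at an adjusted p under 0.05, 125 with poly-A centring (50 of them among the 109 that varied, 45.9% against 46.4% of all that varied, and the 75 flat ones), and 0 with the replicate block or with immature replicates 4 and 5 alone; leaving out single arrays gave 9 to 13. The count higher, 7, became 47 at 0.05, 18 over the 9000 most variable probe sets, 17 over those that varied, 13 over the brighter ones, 13 with median centring, 3 with poly-A centring, and 0 with the replicate block or immature replicates 4 and 5 alone; single arrays gave 2 to 7. The lower count beside those higher ones was 23, 23, 21 and 20. Shares of all probe sets under these settings are not given. At 0.05, flat probe sets made up 6 of the 41 lower and 2 of the 47 higher. In the block fit, whose prior degrees of freedom are near 0, none of the 21 named calls was kept, and 16 were kept with the block over the 9000 probe sets; same-numbered arrays deviated together at r = 0.143, -0.347, 0.0872, 0.672 and 0.359. The methods equate replicates with days whose oocytes were split between the groups, and the labels do not say that a number marks the same day in both. For numbers 4 and 5 the same-numbered array had the highest r, against 0.484 and 0.213 for the best other IVM array. For numbers 1 to 3 another IVM array had a higher r (0.214, 0.628 and 0.357). The numbers may or may not pair the arrays.

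Of these 21 calls 11 held without any single array (ARID3B, ASF1A, BRD9, CHD1, HDAC1, HDAC7, KAT8, PRMT5, PRMT7, SMARCA2 and SMARCAL1). CBX8 and KDM1A were lost without any 1 of the 10, and others without all but 1: BRD8 (kept without IVM replicate 4), the CHD2 probe set at 1.20 (immature replicate 1), HDAC10 (immature replicate 3), ING1 (immature replicate 2) and SMARCA4 (IVM replicate 3). SMARCB1 was lost in 8 fits (not without IVM replicates 1 or 4), ING4 in 6 (not without immature replicate 5 or IVM replicates 3 to 5) and the other CHD2 call in 3 (immature replicates 3 and 4, IVM replicate 3); the highest adjusted p in any of these fits was 5.57e-04. The cause was not tested.

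Poly-A centring reversed the sign of ASF1B (-0.16), BRD7 (-0.62 and -0.49), CHD2 (-0.84 on the probe set at 0.21), DNMT1 (-0.15), H2AZ2 (-0.57), ING4 (-0.01), KDM1A (-0.03), KDM5C (-0.35), MBD1 (-0.54), PRMT1 (-0.49), SIRT1 (-0.78), SMARCA4 (-0.57) and TRDMT1 (-0.78). SMARCA5, near 0, read 0.01 with median centring or immature replicates 4 and 5 alone, and between -0.02 and 0.02 without single arrays.

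With the replicate block each of the 7 pair differences (-3.38, 1.58, 2.94, -2.29, 1.07, -2.96 and 1.16) and the poly-A controls (1.05) had an exact p of 0.0625, the smallest 5 pairs allow. With immature replicates 4 and 5 alone the pair differences were -2.42, 1.35, 2.81, -2.20, 1.26, -3.02 and 1.36, with exact adjusted p of 0.0635 or 0.143. On probe sets with the second highest mean, an alternative chosen after seeing the data, H2AZ2 against H2AZ1 was -0.96 and DNMT1 against DNMT3A, its value of 1.16 unchanged, had an exact adjusted p of 0.0529. Without single arrays DNMT1 against DNMT3A ranged from 0.94 to 1.48, HDAC1 against HDAC3 from 0.22 to 0.47, and the hybridization controls from 0.74 to 1.11 (exact p = 0.0159 and 0.0317 without immature replicates 4 and 5, 0.0556 with all). The pairs HDAC1 with HDAC2 and SIRT1 with SIRT2 had a flat gene, KAT6B with KAT6A an unnamed one, and EZH2 with EED an unsafe name, so no test was made. Array signal over background is not given by these values.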
